A study of Mus musculus with 12 samples.

Results

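The genes examined were the 10 protease-activated and lysophospholipid receptor genes F2r, F2rl1, F2rl2, F2rl3, Lpar1, Lpar3, Lpar5, S1pr1, S1pr2 and S1pr3, chosen by symbol, which are 10 of the 41388 genes counted. All 10 passed the filter on low counts and were among the 15281 genes tested. RNA was sequenced from sensory neurons of dorsal root ganglia (DRG) of male and female C57BL/6 mice aged 3 months. Every group carried the same alleles, RetFloxedEGFP, a knock-in at the Ret locus on 1 chromosome, and Scn10a<tm2(cre)Jnw>, in which the gene of NaV1.8, a sodium channel, drives Cre. EGFP appears only where Cre has acted at Ret, so the sorted cells were small unmyelinated Ret neurons that were heterozygous at Ret, and no group had an intact pair of Ret alleles. The groups were male L345, female L345, male L6S1 and female L6S1, with 3 libraries each. L345 stands for the L3 to L5 ganglia and L6S1 for the L6 and S1 ganglia. Each library was a pool of 2 to 8 mice and 12 to 32 ganglia, and male L345 C is listed with 5 mice in one label and 3 in another. The genotype label of female L345 D, male L6S1 C and female L6S1 B and C names a single allele of the pair, while their treatment label names both. Where pools are the replicates, p-values measure the spread between pools, and the labels do not say whether pools shared mice.

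Protease-activated receptors are G protein-coupled receptors that a protease switches on by cutting the outer end of the receptor, which uncovers a tethered ligand. Lysophosphatidic acid and sphingosine 1-phosphate are signalling lipids made in plasma and injured tissue, and each has its own family of G protein-coupled receptors. In sensory neurons these receptors have been studied for their part in inflammatory pain and itch, and Lpar3 and Lpar5 are known as transcripts of non-peptidergic nociceptors, the class marked by Mrgprd.

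The receptor that dominated its family and the receptor that differed between levels are shown here by the sequence around their start site, beside F2r, which neighbours F2rl2 on chromosome 13 and was near the bottom of the range. F2rl1, F2r and F2rl2 lie in that order within 191008 bases, with gaps of 76563 and 78393 bases between them. The windows run from 250 bases before to 50 bases after the start, 5′ to 3′, from RefSeq on GRCm38.p6, whose primary sequence is that of the GRCm38.p2 build used for the counts. They are chr13:95696670-95696969 (plus strand) for F2rl2, chr13:95618417-95618716 (minus strand) for F2r and chr3:146220711-146221010 (plus strand) for Lpar3. Capitals mark matches to TGAGTCA (AP-1) and TGTGGT (Runx), searched on both strands.
F2rl2: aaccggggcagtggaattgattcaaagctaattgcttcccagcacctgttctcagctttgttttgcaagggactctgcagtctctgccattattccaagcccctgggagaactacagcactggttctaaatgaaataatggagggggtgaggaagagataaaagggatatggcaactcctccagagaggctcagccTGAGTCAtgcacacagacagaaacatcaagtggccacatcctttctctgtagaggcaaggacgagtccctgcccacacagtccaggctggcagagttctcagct
F2r: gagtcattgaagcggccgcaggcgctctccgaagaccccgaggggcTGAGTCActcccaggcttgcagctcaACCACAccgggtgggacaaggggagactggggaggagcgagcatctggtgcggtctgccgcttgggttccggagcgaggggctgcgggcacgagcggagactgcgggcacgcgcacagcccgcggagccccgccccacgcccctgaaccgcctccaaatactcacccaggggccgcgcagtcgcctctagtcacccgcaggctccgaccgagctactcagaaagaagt
Lpar3: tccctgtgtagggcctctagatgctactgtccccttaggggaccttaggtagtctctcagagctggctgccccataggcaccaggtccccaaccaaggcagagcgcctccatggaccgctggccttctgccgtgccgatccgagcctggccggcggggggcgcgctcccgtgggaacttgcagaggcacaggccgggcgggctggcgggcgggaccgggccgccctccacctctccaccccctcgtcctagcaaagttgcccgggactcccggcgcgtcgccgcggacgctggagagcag

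The F2rl2 window held 1 AP-1 match, at -54 from the start, and the F2r window held 1 at -204. Of 32851 RefSeq windows of the same length, 5.2% held this motif. F2r also held a Runx match at -178, a motif found in 16.8% of windows, and Lpar3 held neither. TATAAA, the core of a TATA box, was present in 13.6% of windows and in none of the windows of the 8 members that matched the RefSeq table. F2rl1 and S1pr1 were the members without an entry. The windows differed in composition: F2rl2 had 2 CG pairs and 50.7% GC, near the median of 52.7% GC, while F2r had 28 CG pairs and 68.7% GC and Lpar3 had 25 and 70.3%, where the median window had 7 CG pairs. A match describes these letters and is no evidence of binding.

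Total counts were 16176436 to 26694404 per library, and 3 counts, taken as the limit of detection, correspond to 0.112 to 0.185 CPM, counts scaled to the total of the library. Without molecular identifiers on the reads, this limit covers counting error only. Within male L345, female L345 and male L6S1, pairs of libraries differed by a chi-square of 9.76 to 55.9 per degree of freedom, and within female L6S1 by 109 to 128, so female L6S1 was the most uneven group. Results that rest on female L6S1 B and C are given with and without them. The sort was checked on fixed markers: 5 general neuronal genes summed to 8736 to 10650 CPM at L345 and 9706 to 13325 at L6S1, and 7 satellite glia genes to 1261 to 1757 and 800 to 1830 CPM, with none at 0. Genes of large myelinated neurons summed to 535 to 896 and 247 to 764 CPM. CPM values below are scaled by TMM, an edgeR factor that corrects for library composition. In bulk RNA, fewer cells of a type and less RNA per cell cannot be told apart.

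Levels of different genes were compared per kilobase of transcript, as TMM-scaled RPKM, which is CPM divided by the length of the gene in kilobases. F2rl2 was the most abundant member, with 233 ± 48.6 RPKM (SD, n = 12), above 98.3% of the genes tested. S1pr3 followed with 36.5 ± 5.69, Lpar1 with 26.3 ± 5.95, Lpar3 with 23.5 ± 7.05, Lpar5 with 11.9 ± 5.35 and S1pr1 with 10.8 ± 1.52 RPKM. The 4 lowest were S1pr2 with 1.72 ± 0.457, F2r with 0.692 ± 0.369, F2rl3 with 0.454 ± 0.182 and F2rl1 with 0.337 ± 0.183 RPKM. Of neighbours in this order, 2 pairs did not overlap over the 12 libraries. F2rl2, whose lowest library had 186 RPKM, lay above S1pr3, whose highest had 48.6, and S1pr1, with at least 8.57, lay above S1pr2, with at most 2.27. The other neighbours overlapped: S1pr3 was above Lpar1 in 11 of 12 libraries and Lpar1 above Lpar3 in 7 of 12. The deposited RPKM gave the same order.

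**Figure D1:**
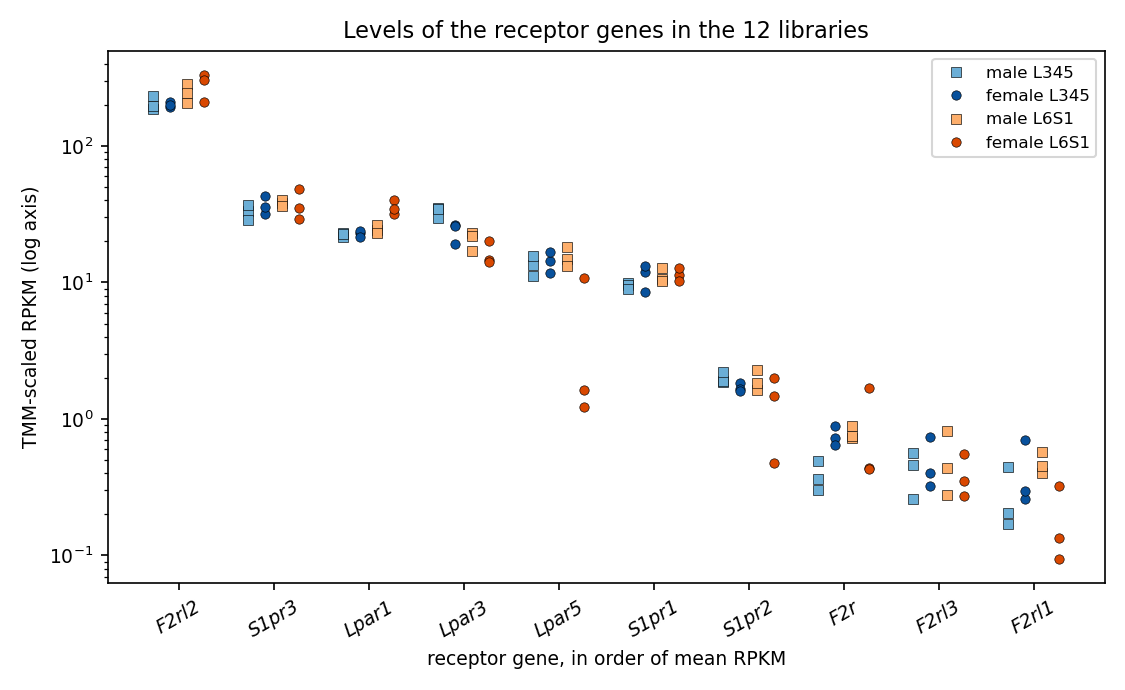
Each point is the TMM-scaled RPKM of a receptor gene in a library, on a log axis, with genes in order of their mean and squares and circles for male and female pools. F2rl2 stands alone at the top, from 186 to 332 RPKM, and 2 female L6S1 points of Lpar5, at 1.23 and 1.63 RPKM, lie far below its other 10.

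Among the protease-activated receptors, F2rl2 supplied nearly the whole signal and did not pass the test between levels. F2rl2 (ENSMUSG00000021675, chromosome 13, 95696853 to 95702739, plus strand, GRCm38) encodes PAR3, which in mouse platelets helps thrombin activate PAR4. It made up 99 to 99.8% of the RPKM summed over the 4 genes in every library. Its CPM was 466, 577 and 490 in male L345 (A, B, C), 480, 526 and 498 in female L345 (B, C, D), 719, 610 and 517 in male L6S1 (A, B, C) and 531, 831 and 761 in female L6S1 (A, B, C). In females all L6S1 libraries lay above all L345 libraries, while in males the groups overlapped. The level difference, L6S1 over L345, was 0.38 ± 0.13 (log2 ± SE, edgeR quasi-likelihood test, adjusted p = 0.101), with 6 of 6 L6S1 libraries above the L345 mean of their sex. Without female L6S1 B and C it was 0.17 (adjusted p = 0.528), and without female L6S1 A it passed (0.47, adjusted p = 0.00739).

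F2r encodes PAR1, the main thrombin receptor of many cell types (ENSMUSG00000048376, chromosome 13, 95601804 to 95618459, minus strand). Its CPM was 0.991, 1.62 and 1.21 in male L345, 2.96, 2.38 and 2.12 in female L345, 2.38, 2.92 and 2.48 in male L6S1 and 5.55, 1.43 and 1.42 in female L6S1, from 21 to 91 counts. The male groups did not overlap, with L6S1 above, and in females L6S1 held both the highest library (A) and libraries (B and C) below every L345 library. The level difference was 0.58 ± 0.32 over both sexes (adjusted p = 0.247), 1.03 ± 0.46 in males (adjusted p = 0.554) and 0.14 ± 0.44 in females (adjusted p = 0.865). Without female L6S1 B and C it passed (1.09, adjusted p = 0.0232), as it did in the 8 libraries that share a style of title (1.04, adjusted p = 0.03), a set that also leaves out female L345 D and male L6S1 C. Without female L6S1 A it was 0.12 (adjusted p = 0.705). Of 6 markers of fibroblasts, which are known to express F2r, Dcn had 64.3 ± 9.72 CPM at L345 and 213 ± 70.9 at L6S1 (SD, n = 6; log2 1.67, adjusted p = 1.91e-05). The other 5 did not pass, with differences from -0.27 (Pdgfra) to 1.43 (Lum), none of the 6 was at 0 in all libraries, and their summed level ran from 69.1 to 93.1 CPM at L345 and 126 to 331 at L6S1, of which Dcn made up 79.4 to 88.9% and 78.7 to 96.9%. The sum of the 6 was 287 and 331 CPM in female L6S1 B and C, where F2r had 1.43 and 1.42 CPM. The part of fibroblasts in F2r was not tested.

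F2rl1 encodes PAR2, the receptor cut by trypsin and mast cell tryptase, and F2rl3 encodes PAR4, a thrombin receptor of platelets. F2rl1 had 0.261 to 1.91 CPM, from 6 to 49 counts, and F2rl3 had 0.457 to 1.43 CPM, from 9 to 36 counts. All 24 values lay above the limit of 3 counts, and for each gene the L345 and L6S1 libraries overlapped in males and in females. The level difference was -0.17 ± 0.37 for F2rl1 (95% interval -0.97 to 0.62, adjusted p = 0.782) and -0.03 ± 0.35 for F2rl3 (-0.78 to 0.72, adjusted p = 0.962). At these counts, differences anywhere within these intervals stayed compatible with the data. For F2rl1 the difference was 0.81 ± 0.52 in males (adjusted p = 0.618) and -1.16 ± 0.54 in females (adjusted p = 0.207). Female minus male was -1.97 ± 0.75 (edgeR interaction adjusted p = 0.871). F2rl3 had 0.24 ± 0.49 in males and -0.30 ± 0.50 in females. Platelet markers were low: Ppbp had no count in any library, and the 4 platelet genes summed to 2.17 to 3.6 CPM at L345 and 2.04 to 5.82 at L6S1, of which Itga2b made up 1.65 to 2.93.

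Lpar3 was the member that passed the test between levels. It fell at L6S1, with -0.62 ± 0.14 (log2 ± SE, 95% interval -0.91 to -0.32, edgeR adjusted p = 0.0355), which is 0.653 of its L345 level. Lpar3 encodes LPA3, a lysophosphatidic acid receptor coupled to Gq and Gi proteins (ENSMUSG00000036832, chromosome 3, 146220961 to 146286214, plus strand). Its CPM was 74.2, 87.5 and 85.6 in male L345, 65.4, 64.9 and 48.3 in female L345, 57.8, 42.5 and 54.6 in male L6S1 and 50.1, 36.3 and 35.1 in female L6S1. For each sex, all L6S1 libraries were under the L345 mean, 6 of 6 in all. The male groups did not overlap, and in females L345 D lay below L6S1 A. Over all genes, 2.33% were called between levels and 0.877% were called lower, so 1 of 10 members compares with a background of 2.33%. At an unadjusted p under 0.05 the share was 3 of 10 members (F2rl2, Lpar1 and Lpar3) against 26.6% of all genes, and the median difference was 0.04 over the members and -0.06 over all genes.

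Within each sex, Lpar3 had a like difference that did not pass alone: -0.68 ± 0.20 in males (adjusted p = 0.325) and -0.56 ± 0.20 in females (adjusted p = 0.144). The difference between these was 0.12 ± 0.28 (interaction adjusted p = 0.97). Female over male, with levels weighted equally, was -0.41 ± 0.14 (adjusted p = 0.764). The call was sensitive to single libraries: it held when female L345 D or female L6S1 A was left out and was lost when any of the other 10 was, with differences of -0.71 to -0.55 and adjusted p of 0.00214 to 0.108. Without female L6S1 B and C it was -0.47 (adjusted p = 0.165), and with label style as a term it was -0.53 (adjusted p = 0.0986). Of 8 markers of Mrgprd-class nociceptors, the cells known to express Lpar3, Runx1 fell (129 ± 18.7 to 74.7 ± 14.4 CPM, SD, n = 6, log2 -0.78, adjusted p = 0.0191) and 7 did not pass. The difference was negative for 7 of the 8 and positive for 1, with a median of -0.32 against -0.06 over all genes. Mrgprd itself had 556 ± 93.8 and 472 ± 121 CPM, and the 8 markers summed to 1947 to 2757 CPM at L345 and 1783 to 2204 at L6S1, with none at 0. Of 6 markers of peptidergic nociceptors, another class of small neurons, 3 rose: Tac1 (0.58, adjusted p = 0.0282), Trpv1 (0.52, adjusted p = 0.0424) and Gal (1.14, adjusted p = 0.00373). The 6 summed to 8971 to 10091 CPM at L345 and 9962 to 15958 at L6S1, highest in female L6S1 B and C (15958 and 15690), with none at 0. The part of either class in the Lpar3 difference was not tested.

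Lpar1 lay on the other side, higher at L6S1 without passing the test. Lpar1 encodes LPA1, the lysophosphatidic acid receptor linked to neuropathic pain and also made by Schwann cells (ENSMUSG00000038668, chromosome 4, 58435255 to 58553898, minus strand). Its CPM was 99.5, 92 and 97.5 in male L345, 98.1, 103 and 92.8 in female L345, 105, 113 and 98.1 in male L6S1 and 137, 172 and 148 in female L6S1. The L345 libraries of both sexes fell within a narrow band, the female L6S1 libraries stood above all other libraries, and the male groups overlapped. The level difference was 0.38 ± 0.10 (adjusted p = 0.0605), with 6 of 6 L6S1 libraries above the L345 mean of their sex, 0.64 ± 0.15 in females (adjusted p = 0.0867) and 0.13 ± 0.15 in males (adjusted p = 0.782). The female difference minus the male was 0.51 ± 0.21 (interaction adjusted p = 0.871). Lpar1 was called by DESeq2 (adjusted p = 0.00643) and in 4 of the other 11 alternatives, and by edgeR without female L6S1 A (0.42, adjusted p = 0.00745). Without female L6S1 B and C, Lpar1 was not called. It was not called in 7 of the 12 alternatives, over which the difference was 0.30 to 0.45 and the adjusted p at most 0.212. Of 6 Schwann cell markers, none passed, 5 had a negative difference and none was at 0 in all libraries. Their sum, most of it Pmp22, ran from 2409 to 2788 CPM at L345 and from 2545 to 3929 at L6S1, and was 3929 and 3817 in female L6S1 B and C, the libraries with the most Lpar1. Their part in the Lpar1 values was not tested; with a glial score as a covariate the Lpar1 difference was 0.38 (adjusted p = 0.188).

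**Figure D2:**
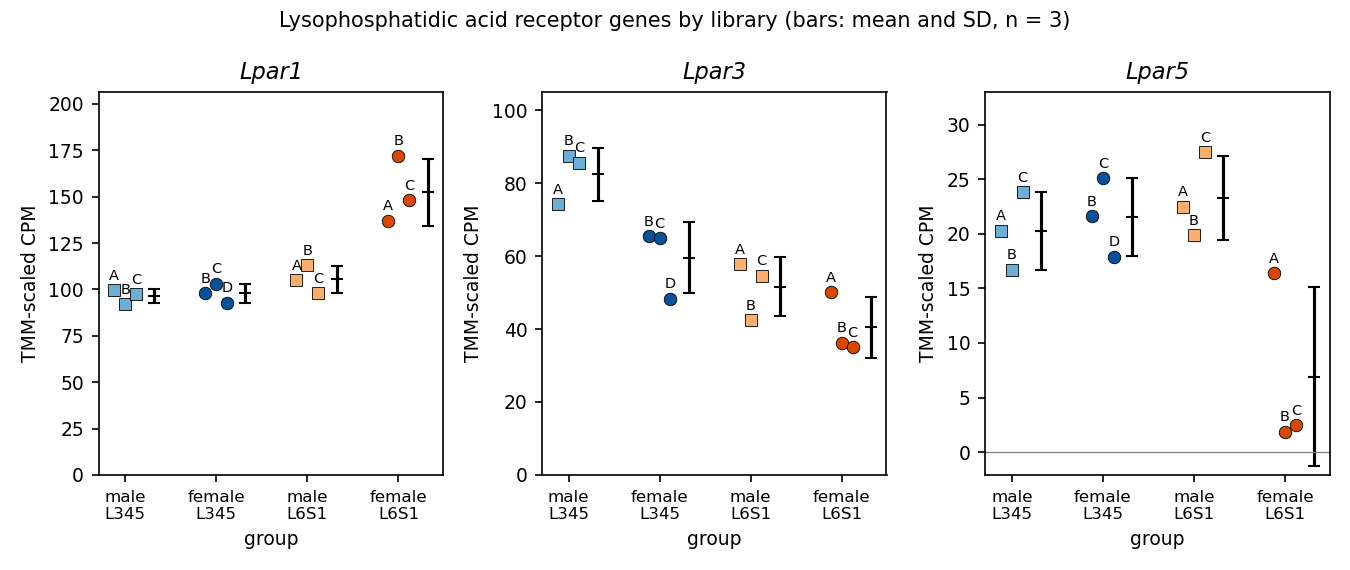
Points are TMM-scaled CPM of Lpar1, Lpar3 and Lpar5 in each library, with letters for the replicate and bars for the mean and SD of 3 libraries. Lpar3 is 74.2 to 87.5 in male L345 and 35.1 to 50.1 in female L6S1, Lpar1 is 137 to 172 in female L6S1 and at most 113 elsewhere, and Lpar5 is 1.87 and 2.47 in female L6S1 B and C and 16.4 to 27.5 in the other 10 libraries.

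Lpar5 was low in 2 libraries rather than at a level. It encodes LPA5, which couples to G12/13 and Gq proteins (ENSMUSG00000067714, chromosome 6, 125067920 to 125082472, plus strand). Its CPM was 20.3, 16.7 and 23.8 in male L345, 21.6, 25.1 and 17.9 in female L345, 22.5, 19.9 and 27.5 in male L6S1 and 16.4, 1.87 and 2.47 in female L6S1. Female L6S1 B and C, with 43 and 59 counts, stood apart, and female L6S1 A was close to the L345 libraries. The level difference was -0.73 ± 0.40 (adjusted p = 0.245), 0.20 ± 0.55 in males (adjusted p = 0.92) and -1.67 ± 0.58 in females (adjusted p = 0.142), and female minus male was -1.87 ± 0.79 (interaction adjusted p = 0.871). It was -0.10 (adjusted p = 0.807) without female L6S1 B and C, and without female L6S1 A it passed over both sexes (-1.55, adjusted p = 6.93e-05) and as an interaction (-3.51, adjusted p = 4.62e-05). The sex difference of Lpar5 was -0.85 ± 0.40 (adjusted p = 0.764), and it too passed without female L6S1 A (-1.67, adjusted p = 4.93e-05).

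The pattern of Lpar5 was shared by few genes. Of 9965 genes that averaged 5 CPM or more, 28 (0.281%), Lpar5 included, had both of these libraries below 0.2 of the lowest of the other 10, a limit set after the values were seen. The higher of the 2 was 0.151 of the lowest of the other 10 for Lpar5 and 0.855 for Lpar3, and for the other 8 members it was 1.35 to 2.4. Among the 28 were genes active in most cells, named here after their values were seen: Cox5a, a subunit of the respiratory chain, had 4.78 and 4.44 CPM in female L6S1 B and C and 116 to 205 elsewhere. Pfn1, the actin-binding profilin, had 29.4 and 39.2 CPM against 279 to 534. Pdia3, a protein-folding enzyme, had 91.7 and 78.5 CPM against 784 to 891. Genes most like a member were taken as those with the smallest SD of the log2 ratio to it over the 12 libraries, and for Lpar5 these were Npdc1 (0.18), Mpv17l2 (0.18) and Pias4 (0.20), where the median candidate had 1.18. Npdc1 had 50.9 and 85.9 CPM in female L6S1 B and C and at least 470 in the other 10 libraries.

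**Figure D3:**
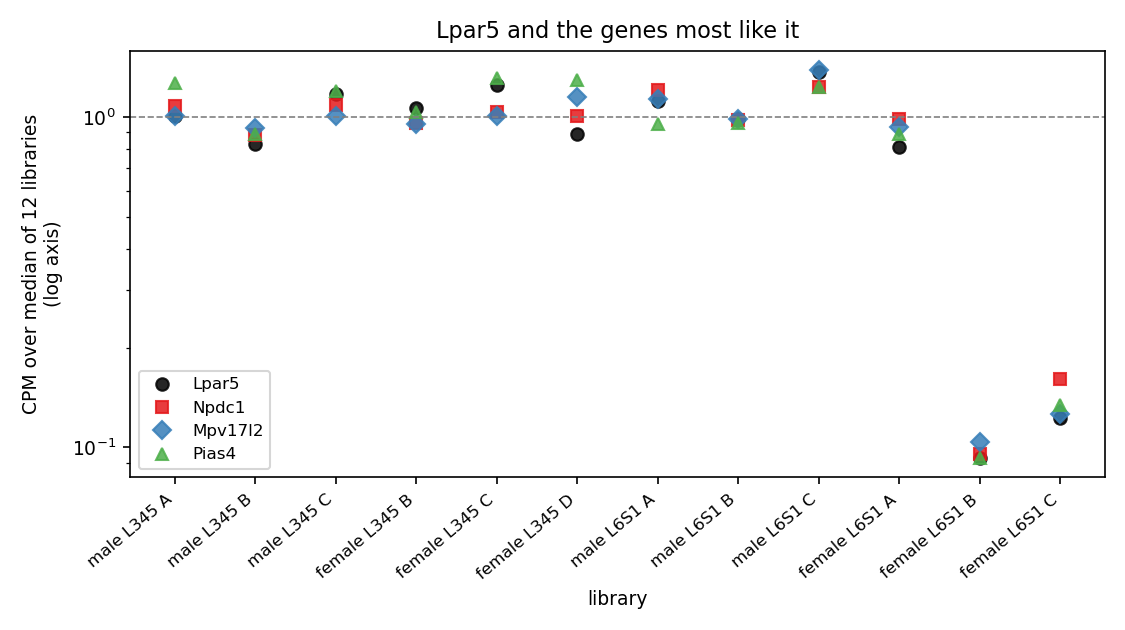
Each point is the CPM of a gene in a library over that gene's median of the 12 libraries, on a log axis, for Lpar5 and the 3 genes most like it. Female L6S1 B and C lie at 0.0929 and 0.123 of the median for Lpar5, and the other 10 libraries lie between 0.813 and 1.37.

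The make-up of the lysophosphatidic acid receptor signal moved with these values. Lpar3 made up 36.7 to 51.9% of the RPKM summed over Lpar1, Lpar3 and Lpar5 at L345 (median 43.1%) and 26 to 37.1% at L6S1 (median 31%). Lpar1 made up 31.2 to 41% (median 35.5%) and 36.3 to 71.8% (median 48.8%). Lpar3 over Lpar1 was 1.28, 1.64 and 1.51 in male L345, 1.15, 1.08 and 0.895 in female L345, 0.948, 0.645 and 0.957 in male L6S1 and 0.631, 0.363 and 0.408 in female L6S1. Within each sex every L6S1 library had a lower ratio than every L345 library, and over both sexes female L345 D lay among the male L6S1 libraries. This ratio was chosen after the values of its genes were known and has no test.

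**Figure D4:**
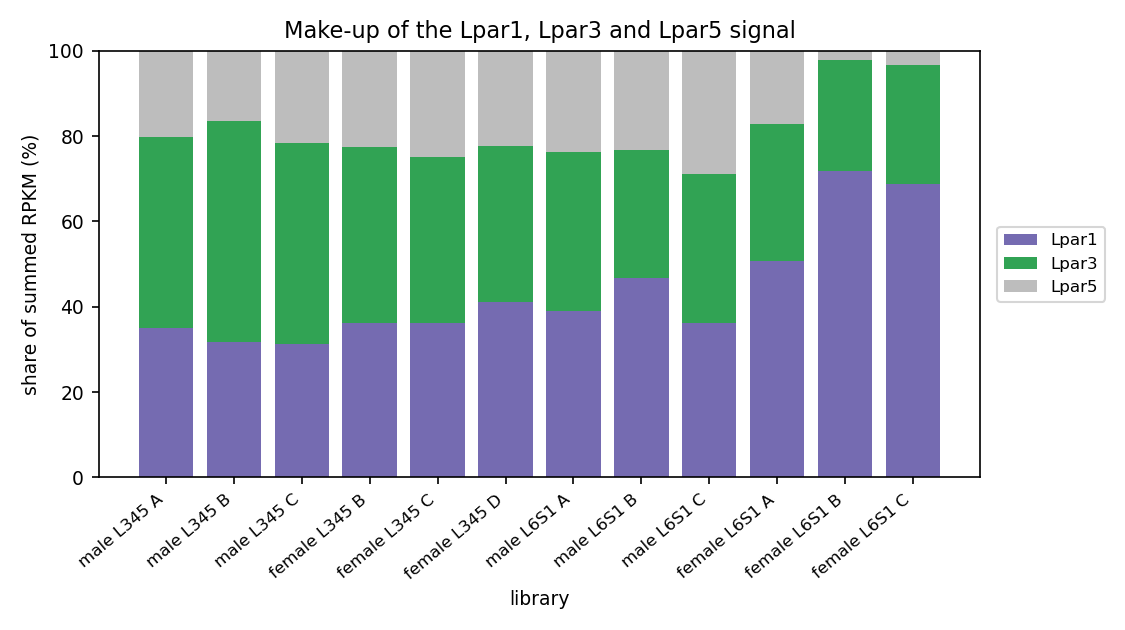
Stacked bars give the percent of RPKM summed over the 3 lysophosphatidic acid receptor genes in each library. Lpar3 falls from 51.9% in male L345 B to 26% in female L6S1 B, where Lpar1 takes 71.8% and Lpar5 2.2%.

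The sphingosine 1-phosphate receptors did not pass the test at any contrast. S1pr3, the Gq- and G12/13-coupled receptor that is needed for pain evoked by sphingosine 1-phosphate in mice (ENSMUSG00000067586, chromosome 13, 51408618 to 51422797, plus strand), led its family with 69.7 to 81% of the summed RPKM at L345 and 72.8 to 76.8% at L6S1. Its CPM was 151, 129 and 165 in male L345, 143, 160 and 195 in female L345, 172, 181 and 163 in male L6S1 and 157, 131 and 218 in female L6S1, and the levels overlapped in each sex. The level difference was 0.12 ± 0.14 (95% interval -0.17 to 0.41, adjusted p = 0.589). S1pr1, a Gi-coupled receptor best known from lymphocytes and blood vessels (ENSMUSG00000045092, chromosome 3, 115710433 to 115715055, minus strand), had 30.2, 28.9 and 27 CPM in male L345, 36.3, 39.8 and 25.9 in female L345, 38.3, 32.2 and 31.3 in male L6S1 and 34.3, 31.1 and 38.4 in female L6S1. All male L6S1 libraries lay above all male L345 libraries, the female groups overlapped, and the level difference was 0.13 ± 0.13 (-0.15 to 0.42, adjusted p = 0.525). Of 7 endothelial markers 5 were tested and none passed, none was at 0 in all libraries, and their sum was 2.49 to 5 CPM at L345 and 1.62 to 19.7 at L6S1. The 19.7 was female L6S1 C, where S1pr1 had 38.4 CPM, and the marker sum was 3.26 CPM in female L6S1 B. The part of endothelial cells in S1pr1 was not tested.

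S1pr2, coupled mainly to G12/13 proteins (ENSMUSG00000043895, chromosome 9, 20965952 to 20976793, minus strand), was the scarcest of the 3. Its CPM was 5.24, 5.33 and 6.15 in male L345, 5.14, 4.69 and 4.49 in female L345, 4.56, 5.16 and 6.39 in male L6S1 and 4.15, 1.35 and 5.61 in female L6S1. Female L6S1 B, with 31 counts, was the lowest library and the other 11 lay between 4.15 and 6.39. The level difference was -0.21 ± 0.25 (-0.75 to 0.33, adjusted p = 0.607).

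**Figure D5:**
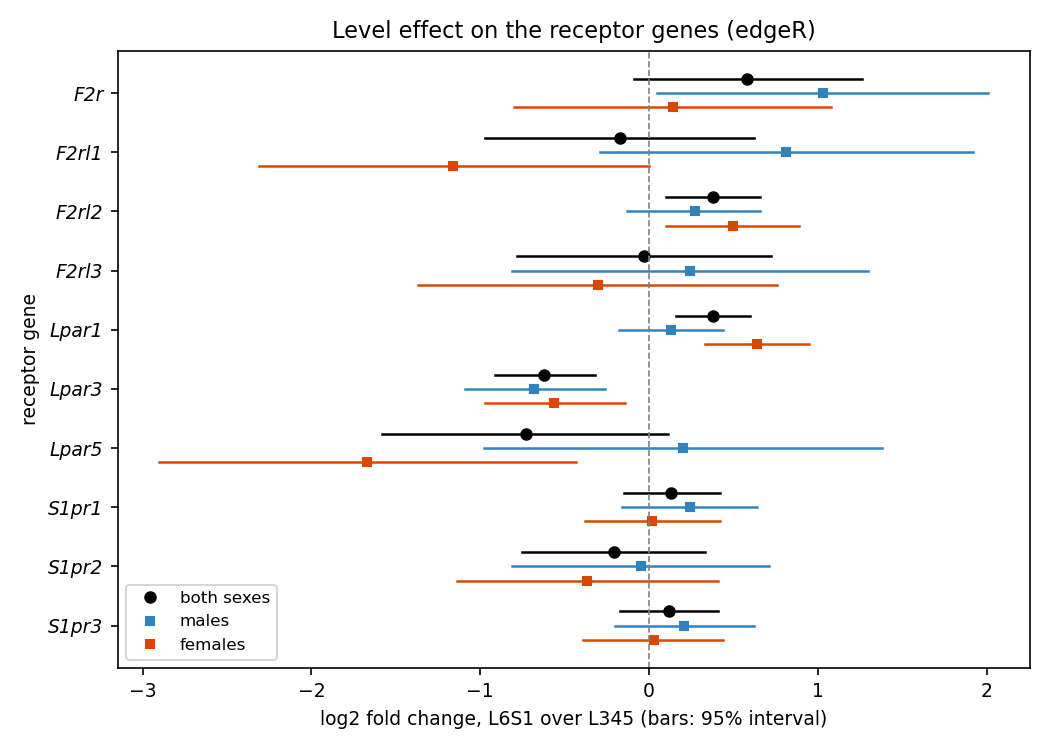
Points are edgeR log2 fold changes of L6S1 over L345 for each receptor gene over both sexes and within each sex, with bars for the 95% interval. For Lpar3 the 3 intervals lie below 0, and for Lpar5 the male (0.20) and female (-1.67) estimates fall on opposite sides of 0. The male and female estimates of F2rl1 (0.81 and -1.16) and F2rl3 (0.24 and -0.30) also differ in sign.

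Separation of the levels with no overlap was counted for the members and for all genes. In males 3 of 10 members had no overlap between levels (F2r and S1pr1 above at L6S1, Lpar3 below), where 24.7% of all genes had none. In females 3 of 10 had none (F2rl2 and Lpar1 above, Lpar5 below), against 19.5% of all genes. Over both sexes, 6 libraries against 6, all 10 members overlapped, against 3.24% of genes that did not. Within a sex no member was called, where 0.222% of genes were called in males and 0.36% in females. The sex contrast called none of the 10, against 0.0589% of all genes. For the interaction edgeR called 0 of 15281 genes, with 714 (4.67%) at an unadjusted p under 0.05, while DESeq2 called 2 and limma-voom 2.

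The genes most like the other members were found in the same way. F2rl2 was followed by Dctn6 (0.05), Coq3 (0.06) and Tmem128 (0.06), where F2rl2 itself had an SD of 0.28 and the median candidate 0.42. Lpar1 was followed by Pla2g7 (0.10), whose enzyme breaks down platelet-activating factor, Scp2 (0.12) and Stmn1 (0.12). Lpar3 was followed by Anks1b (0.17), Ypel1 (0.19) and Xpo7 (0.19), where Lpar3 had an SD of 0.44 and the median candidate 0.49. Anks1b (-0.67, adjusted p = 0.0353) and Ypel1 (-0.72, adjusted p = 0.0381) were called lower at L6S1 and Xpo7 was not (-0.55, adjusted p = 0.0628). S1pr1 was followed by Acad11 (0.12), Nek3 (0.14) and Rnf169 (0.14), and S1pr3 by Aars (0.09), Rgs19 (0.09) and Gle1 (0.10). Over the 6 members that averaged 5 CPM or more, 15 of the 18 genes were the same with a pseudocount of 2 in place of 0.5.

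Of the other receptors of these families, 3 of 10 were abundant enough to test, and Gpr174 rose. Gpr174, a receptor for lysophosphatidylserine, had 0 to 10 counts per library at L345, where 3 of 6 libraries were above the limit of 3 counts, and 26 to 54 at L6S1. It passed the filter on low counts through its L6S1 libraries. Its level was 0.202 ± 0.155 CPM at L345 and 1.72 ± 0.597 at L6S1 (SD, n = 6; adjusted p = 0.00351). The fitted log2 difference of 3.10 ± 0.47 rests on an L345 level near the limit of detection, so its size is uncertain. The background share of genes called higher was 1.45%. The call held without each single library and in 11 of 12 other alternatives, the exception being the glial covariate (2.88, adjusted p = 0.0647). These fits share most of their libraries and, apart from the fit without a filter, a filter that Gpr174 passes through L6S1. They are therefore no separate support for the call. Of 8 macrophage markers 3 were tested, C1qb rose (2.21, adjusted p = 0.00982), none was at 0 in all libraries, and the sum of the 8 was 2.03 to 3.01 CPM at L345 and 4.04 to 28.3 at L6S1. The 28.3 was female L6S1 C, where Gpr174 had 1.42 CPM. The 4.04 was female L6S1 B, where Gpr174 had 2 CPM. The part of macrophages in the Gpr174 difference was not tested. Lpar6 (3.56 CPM over all libraries, log2 0.21, adjusted p = 0.538) and Lpar4 (0.559 CPM, 0.62, adjusted p = 0.453) did not pass.

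Of 7 genes that make or break down lysophosphatidic acid, 6 were tested and 1 rose, where 1.45% of all genes were called higher. Enpp2 encodes autotaxin, the secreted enzyme that makes most extracellular lysophosphatidic acid. It had 19.5 ± 3.37 CPM at L345 and 30.6 ± 5.9 at L6S1 (0.65 ± 0.16, adjusted p = 0.0492). This call was lost in 9 of the 12 fits without a library, being kept without female L345 D, female L6S1 A or female L6S1 C. Over the 12 fits the difference was 0.55 to 0.75 and the adjusted p 0.0137 to 0.148. The call was also lost without female L6S1 B and C together (0.65, adjusted p = 0.0586), with label style as a term (0.64, adjusted p = 0.113) and with the glial covariate (0.56, adjusted p = 0.208). The lipid phosphatase genes Plpp1 (55.5 CPM), Plpp2 (27.2) and Plpp3 (22.1) and the kinase gene Agk (38) did not pass. Of 8 genes that make, break down or export sphingosine 1-phosphate, 7 were tested and none passed, with a median difference of 0.02. The phosphatase gene Sgpp2 was the most abundant of them (183 ± 17 and 180 ± 32.2 CPM).

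Of 26 protease genes that can act on protease-activated receptors, 6 were tested, none passed and 7 were at 0 in every library. The most abundant were F3, tissue factor (9.76 CPM over all libraries), Plat, tissue plasminogen activator (8.29), and Klk8, a kallikrein (5.53). Of 12 inhibitor and thrombin cofactor genes, 8 were tested and none passed. When GC content and transcript length were corrected for by offsets, 1 of the 8, Serpini1, was called higher. Serpini1, neuroserpin, had 203 CPM and Thbd, thrombomodulin, 50 CPM, with differences of 0.21 (adjusted p = 0.419) and -0.32 (adjusted p = 0.176).

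Of 25 genes of G proteins and direct effectors, 24 were tested, 3 fell and none rose, where 0.877% of all genes were called lower. Grk3, a kinase that desensitises receptors, fell from 20.5 ± 3.48 to 12.4 ± 1.46 CPM (-0.72 ± 0.15, adjusted p = 0.0256). Gnai2, a Gi alpha subunit, fell from 164 ± 32.2 to 107 ± 17.1 CPM (-0.60 ± 0.13, adjusted p = 0.032), and Gnao1, the Go alpha subunit, from 630 ± 62.2 to 452 ± 68.3 CPM (-0.49 ± 0.11, adjusted p = 0.0381). Gnaq, the most abundant of the list and the partner of Gq-coupled receptors, had 1576 ± 74.2 and 1231 ± 335 CPM (-0.38 ± 0.13, adjusted p = 0.104). The difference was negative for 23 of 24 genes, against 55.5% of all genes, with a median of -0.38 against -0.06. Without female L6S1 B and C none of the 24 was called and the median was -0.28, and with offsets for GC content and transcript length the median was -0.23 and 4 were called lower (Grk3, Gnai2, Gnaz and Plcb3). Gnao1 lost its call there (-0.29, adjusted p = 0.1). Leaving out a library in turn ended the call in 10 of 12 fits for Gnao1, 7 for Gnai2 and 6 for Grk3. The level difference moved with exon length over all genes, from a median of 0.25 for genes under 1000 bases to -0.23 for those over 5000. Its part in this list was not tested, beyond the fit with offsets. With these offsets the Lpar3 difference was -0.74 (adjusted p = 0.018).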

How the data were processed

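RNA of 12 pools of sorted neurons was amplified from 10 ng with SMARTer chemistry and 12 PCR cycles, per the labels' protocols. The authors deposited whole-number counts, CPM and RPKM of 41388 Ensembl genes for each library. Per the submitters' processing notes, Subread was the aligner, featureCounts 1.4.5 the counter and GRCm38.p2 the genome. Annotation release and strand setting: not given in the sources used here. GENCODE M21 gave symbols for 40254 genes (97.3%). By the exon coordinates deposited with the counts, no exon of a member overlaps an exon of another gene.

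Only counts were tested, with edgeR 4.0.16 (R 4.3.3): TMM scaling, filterByExpr by group, 1 mean per group of sex and level in a robust quasi-likelihood model (8 residual degrees of freedom), and Benjamini-Hochberg adjustment over the 15281 genes, with calls under 0.05. The sexes, or the levels, were weighted equally, and the interaction is the level difference in females minus that in males. CPM and RPKM were recomputed from the counts and the gene lengths in the files; the deposited RPKM served to check the order of levels and the deposited CPM was not used. Differences are log2. The genes named are all members, the 3 genes most like each member that averaged 5 CPM or more (pseudocount 0.5), and of each pathway list every called gene and up to 4 abundant others. Members, lists, tests and alternatives were chosen with earlier results of these data known.

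The alternatives were other scalings (RLE, upper quartile), other tools (DESeq2 1.42.0, limma-voom 3.58.1 with quality weights), other filters (none, or 1 CPM in 6 libraries), label style as a term (titles come in 2 styles, on 8 and 4 libraries) or the 8 of the first style alone, a replicate block, leaving out female L6S1 B and C or any single library, GC and length offsets (known for 99.4% of genes tested) and a glial covariate. The second style is on female L345 D, male L6S1 C and female L6S1 B and C, so style and level are partly confounded. On simulated counts of 15054 genes the level test recovered 71% of genes changed 2-fold and 97% of those changed 4-fold. The interaction test, on 15041 genes, recovered 6% and 59%. The simulation gave a gene the same spread in every group, while female L6S1 was more uneven, so these shares may not hold for these libraries.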

Additional observations from a re-analysis of the deposited data

Results flagged for a closer look

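F2r at L6S1 was flagged because a single library lay far from the others of its level. Female L6S1 A had 5.55 CPM and the nearest of the other 5 L6S1 libraries had 2.92, a gap of 0.638 of the whole range, above Dixon's critical value of 0.625 for 6 libraries. The same check over 30 groups, 6 libraries each for 15 genes, flagged no other, and chance flags about 1 group in 20.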

How the results depend on the processing

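Genes called between levels numbered 356, and 545 with upper-quartile scaling, 841 without the filter, 1518 by DESeq2, 3268 by limma-voom, 125 with a label style term, 1985 with the replicate block, 137 without female L6S1 B and C, 585 with the GC and length offsets and 62 with the glial covariate. Leaving out a library gave 80 to 4031, the highest without female L6S1 A. Members called numbered 1 (Lpar3), and 2 with upper-quartile scaling, DESeq2, the replicate block and the offsets (each with Lpar1) and in the first label style (with F2r), 4 by limma-voom, 0 with the style term and 0 with the glial covariate, and 0 to 4 without a library. In males 34 genes were called, and 78 without the filter, 109 by DESeq2, 1864 by limma-voom (4 members), 197 in the first label style (1 member), 133 without female L6S1 B and C, 60 with the offsets, 18 with the glial covariate and 9 to 60 without a library. In females 55 were called, and 256 without the filter, 750 by DESeq2 (1 member), 24 without female L6S1 B and C, 89 with the offsets (1 member), 29 with the glial covariate and 17 to 3843 without a library (0 to 4 members); limma-voom called 1 member. For sex 9 genes were called, and 24 without the filter, 31 by DESeq2 and 7 to 991 without a library (0 to 2 members). For the interaction 0 were called, and 3 without the filter, 2 by DESeq2, 2 by limma-voom and 0 to 817 without a library (0 to 2 members).

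Signs turned only for differences that were not called. F2rl3 was 0.04 with upper-quartile scaling, 0.12 with the style term, 0.42 with the glial covariate and -0.29 to 0.18 without a library. F2rl1 was 0.05 and S1pr2 0.03 with the glial covariate, and F2rl1 was -0.52 to 0.12 without a library. In females F2r was -0.29 by limma-voom, -0.26 with the replicate block, -0.15 with the glial covariate and -0.80 to 0.47 without a library. The Lpar3 interaction was -0.08 by limma-voom, -0.07 with the replicate block and -0.07 to 0.23 without a library. The F2r interaction was 0.13 without female L6S1 B and C, and Lpar5 in males was -0.03 with the offsets. The cause was not tested.

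Whether the replicate letters pair the samples is not known. Deviations of same-lettered libraries from their group means correlated at 0.00, 0.24 and 0.24 in males and 0.42 and 0.01 in females. Libraries of different letters were not compared in this way, so these values cannot settle pairing. The replicate block is therefore only an alternative. Each group had 3 pools, and 1 library can decide a call: without female L6S1 A, Lpar5, Lpar1 and F2rl2 also passed between levels. Lpar3 had a negative level difference in every fit run. F2r, F2rl1 and F2rl3 rest on at most 91, 49 and 36 counts per library. A scaling other than TMM moved the median of all genes from -0.06 to at most 0.01.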
